A study of Mus musculus with 8 samples.

Results

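Muscle fibre nuclei with Runx1 transcripts made up a small and mixed class in mouse gastrocnemius, a calf muscle, sampled by single-nucleus RNA sequencing. A nucleus was eligible when it held at least 5 UMIs (tags that count each captured RNA molecule once) of the myosin heavy chains Myh1, Myh2, Myh4 and Myh7 together, with these making up at least 0.3% of its UMIs, and no UMI of Ptprc, Pdgfra, Pecam1, Pax7 or Col22a1, which mark immune, fibro-adipogenic, endothelial, muscle stem and myotendinous nuclei. Members were the 205 eligible nuclei with at least 2 Runx1 UMIs, of 36553 eligible nuclei and 64803 nuclei in all. Another 978 eligible nuclei held 1 Runx1 UMI, and the 35370 with 0 Runx1 UMIs, called Runx1-0 nuclei, were the comparison within each library. The members were chosen by the measured counts of Runx1, the 4 myosins and the 5 excluded markers, so the values of these genes in members are given as a description only. Comparisons of the Runx1 level or share between groups of libraries are a separate question, since the rule used no group.

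The study set muscle of 20-month-old mice (Old) against 3-month-old mice (Young). It also set trained mice (Running) against untrained mice (Sedentary), both listed at 11 months of age. The Running mice entered 2 months of treadmill training at that age and were sampled after it. All mice were wild type C57BL/6. Each group had 1 library of a 10x Genomics droplet set and 1 of a second set. The paper names 10x Genomics and DNBelab C without saying which library came from which, and the second set is taken to be DNBelab C. How many mice a library holds, and their sex, is not given in the sources used here, so no p-value below measures the spread between mice. The edgeR fits draw the spread of a gene partly from other genes. An SE of theirs can therefore be smaller than the gene's own spread between libraries, which may itself be technical.

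Runx1 encodes a DNA-binding transcription factor that is scarce in innervated muscle fibres and accumulates after the nerve is lost. Denervated fibres also spread acetylcholine receptors and the adhesion molecule Ncam1 along their surface and raise the myogenic factor Myog, which acts on E-boxes (CANNTG) of the receptor genes. Runx1 is also a long-known factor of blood cells, so that it is no marker of muscle on its own.

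The sequences that bear most directly on the class belong to microRNAs lying inside a transcript that was high in members. Gm28653, a long intergenic noncoding RNA on chr1:20669882-20684298 (GRCm38, plus strand), spans the genes Mir206 (chr1:20679010-20679082) and Mir133b (chr1:20682769-20682887) in the GENCODE annotation. miR-206 is a muscle microRNA known to be induced by denervation. The droplet assay does not read mature microRNAs, so only the host transcript was measured. The mature sequences from RefSeq (GRCm38.p6) are shown with the seed, bases 2 to 8, in capitals, and the seeds of the pair differ.
mmu-miR-206-3p: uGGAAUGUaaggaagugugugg
mmu-miR-133b-3p: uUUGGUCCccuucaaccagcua

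The stretches upstream of Chrna1 (the receptor's alpha subunit) and Myog are shown because Myog acts on genes of this kind, with each CANNTG in capitals. The motif reads the same on both strands, so each copy is counted once. The windows are the 250 bases before the RefSeq start, on chr2:73580339-73580588 (minus strand) for Chrna1 and on chr1:134289754-134290003 (plus strand) for Myog.
Chrna1: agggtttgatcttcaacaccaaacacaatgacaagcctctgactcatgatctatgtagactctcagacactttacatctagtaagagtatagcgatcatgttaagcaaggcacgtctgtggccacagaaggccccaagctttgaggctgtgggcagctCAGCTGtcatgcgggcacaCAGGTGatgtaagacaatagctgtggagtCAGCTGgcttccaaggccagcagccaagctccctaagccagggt
Myog: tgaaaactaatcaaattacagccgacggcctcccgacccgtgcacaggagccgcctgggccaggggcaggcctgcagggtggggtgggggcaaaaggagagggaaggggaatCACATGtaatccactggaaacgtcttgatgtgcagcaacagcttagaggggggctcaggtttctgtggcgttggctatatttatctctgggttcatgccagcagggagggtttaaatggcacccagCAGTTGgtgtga
Chrna1 held 3 copies and Myog 2. The motif is common, being present in 66.2% of 32851 such windows, and a match is a description of letters only.

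The libraries differed in depth and in how well the myosin limit marked muscle. Retained nuclei summed to 4765224 to 44389777 UMIs a library, with a median of 1664 to 3001 UMIs a nucleus in the 10x libraries and 909 to 1689.5 in the second set. The myosin limit passed 44.97% to 66.4% of nuclei in the 10x libraries but 66.2% to 99.9% in the second set, so in the latter it separates muscle from other nuclei poorly. Between 30 and 46 barcodes were shared by each pair of 10x libraries, each holding 10646 to 13036 barcodes. 

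Members were rare in every library. They made up 1.26% of eligible nuclei in Old (56 of 4441, 95% Wilson interval 0.972% to 1.63%), 0.487% in Young (35 of 7189, 0.350% to 0.676%), 0.340% in Running (24 of 7052, 0.229% to 0.506%) and 0.724% in Sedentary (32 of 4422, 0.513% to 1.02%) of the 10x set. The second-set shares were 0.726% in Old (18 of 2481, 0.459% to 1.14%), 0.485% in Young (18 of 3713, 0.307% to 0.765%), 0.338% in Running (12 of 3547, 0.194% to 0.590%) and 0.270% in Sedentary (10 of 3708, 0.147% to 0.496%). Intervals cover counting error only.

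Old was above Young in both sets, with intervals that did not overlap in the 10x set and did in the second. The mean share was 0.993% in Old and 0.486% in Young, a difference of 0.507 points, or 0.2397 without Old of the 10x set and 0.775 without Old of the second (exact permutation test of 2 libraries against 2, two-sided p = 0.3333, the smallest this design allows). Running was below Sedentary in the 10x set and above it in the second, with means of 0.339% and 0.497% (difference −0.157 points, exact permutation p = 1). With a threshold of 1 Runx1 UMI, the Old libraries stood at 5.02% and 5.04% and the Young libraries at 2.62% and 3.34%, while Running stood at 2.89% and 1.86% against 4.30% and 1.70% in Sedentary.

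**Figure D1:**
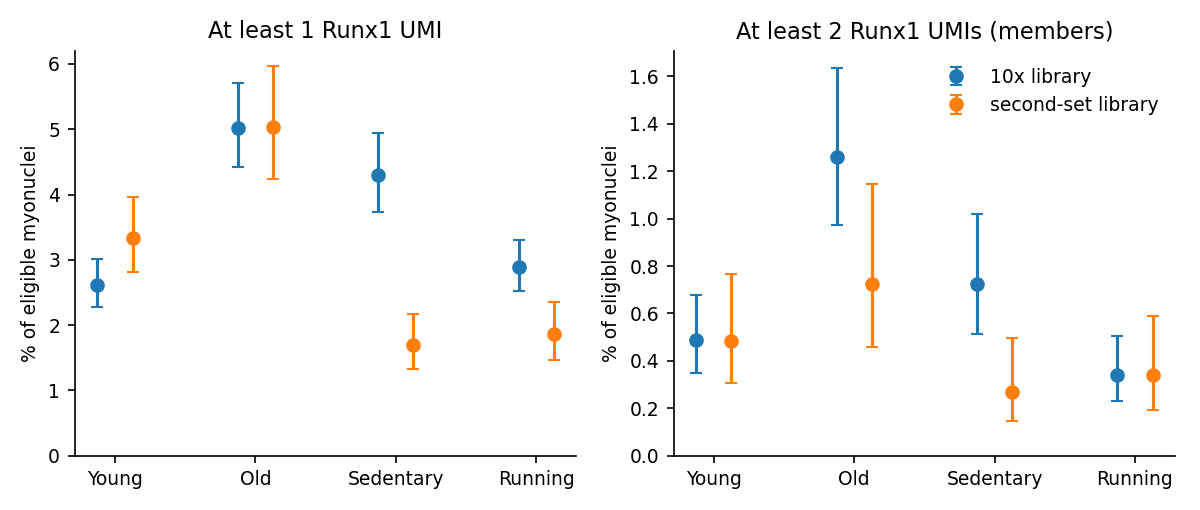
Share of eligible myonuclei with at least 1 (left) and at least 2 (right) Runx1 UMIs, in percent, by group; points are libraries, blue for 10x and orange for the second set, and bars are 95% Wilson intervals. Old lies above Young in both sets, whereas Sedentary lies above Running in the 10x set only.

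The same threshold was read in nuclei that should lack or hold Runx1. Endothelial nuclei with both Pecam1 and Cdh5 reached 2 Runx1 UMIs in 0.943% (Old, 2 of 212), 0.704% (Young, 1 of 142), 0% (Running, 0 of 163, Wilson upper bound 2.30%) and 2.56% (Sedentary, 2 of 78) of the 10x nuclei, at median depths of 1530.5 to 2424.5 UMIs against 2179 to 3740 in eligible nuclei. The eligible share lay within the 95% interval of the endothelial share in each of the 4 10x libraries, though those intervals are wide, rest on 0 to 2 nuclei and come from shallower nuclei. The share of members is therefore not read as a share of fibre nuclei expressing Runx1. In the 10x set, macrophage nuclei with both Ptprc and Mrc1 reached it in 43.6% to 70.8%, at 7.37 to 13.2 Runx1 UMIs per 10000 UMIs against 0.0881 to 0.215 in eligible nuclei. Such nuclei of the second set reached it in 0 of 18, 0 of 11, 0 of 5 and 0 of 2 (Old, Young, Running, Sedentary). Other 10x nuclei also reached it: 7.30% to 12.7% of those with Pax7, 2.44% to 16.3% of those with Adipoq and Plin1, and 2.83% to 13.6% of those with at least 2 Col22a1 UMIs.

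Most members sat close to the threshold. Of the 205, 136 had exactly 2 Runx1 UMIs, 69 had at least 3 and 6 had at least 10. The highest count in a nucleus was 31 in Old, 12 in Young, 13 in Running, with 4 in Sedentary, of the 10x set, and 3 to 6 in the second set. Members were also deeper than Runx1-0 nuclei, with median UMIs of 5302.5 against 3693.5 in Old, 4628 against 3251 in Young, 4515 against 3290.5 in Running and 4167.5 against 2160.5 in Sedentary of the 10x set. Just outside the threshold, at 1 Runx1 UMI, Ncam1 stood in the 10x set at 0.927 (Old), 0.3331 (Young), 0.0892 (Running) or 0.673 (Sedentary) UMIs per 10000, and just inside it, at 2, the same libraries stood at 4.29, 0.773, 1.83 and 0.318.

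The label was checked against its markers Ncam1 and Myog and each was detected in a minority of members only. Ncam1 was found in 32 of 205 members (15.6%) and Myog in 12. A UMI of another immune marker (Mrc1, F13a1, Csf1r, Cd74, Cd163, Dock2 or Ikzf1) was found in 48 (23.4%), 6 members had both Ncam1 and an immune UMI, and 131 (63.9%) had neither. Both transcripts are sparse, and at a median of 3490 UMIs a member (1507 in the second set) a count of 0 does not show that a nucleus lacked them. The class is therefore called Runx1-positive nuclei here, and not denervated nuclei.

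Strong Runx1 counts and strong immune counts fell mostly in different nuclei, with some overlap. The 6 members with at least 10 Runx1 UMIs all came from 10x libraries (4 Old, 1 Young, 1 Running), and all 6 held Ncam1, Dlg2, Gm28653 and Sh3d19 while none held F13a1, Mctp1 or Dab2. Of these 6, 3 held 1 or 2 immune UMIs. They carried 461 of the 613 Dlg2 UMIs and 142 of the 277 Ncam1 UMIs of all 10x members. These 6 nuclei had a median of 12117 UMIs, against 4589 over all 10x members, and any transcript is found more often in deeper nuclei. The 13 members with at least 5 immune UMIs, all from 10x libraries, carried 166 of 177 Mctp1 and 89 of 92 Dab2 UMIs of all 205 members. They also carried 137 of 140 F13a1 UMIs, but F13a1 is among the markers counted to pick them, so that share follows largely from the choice. Of the 13, 1 held Ncam1 (17 UMIs). Of the 12 members with at least 5 Ncam1 UMIs, 5 held an immune UMI. Each subset was picked after its values were seen and is described without a test.

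**Figure D2:**
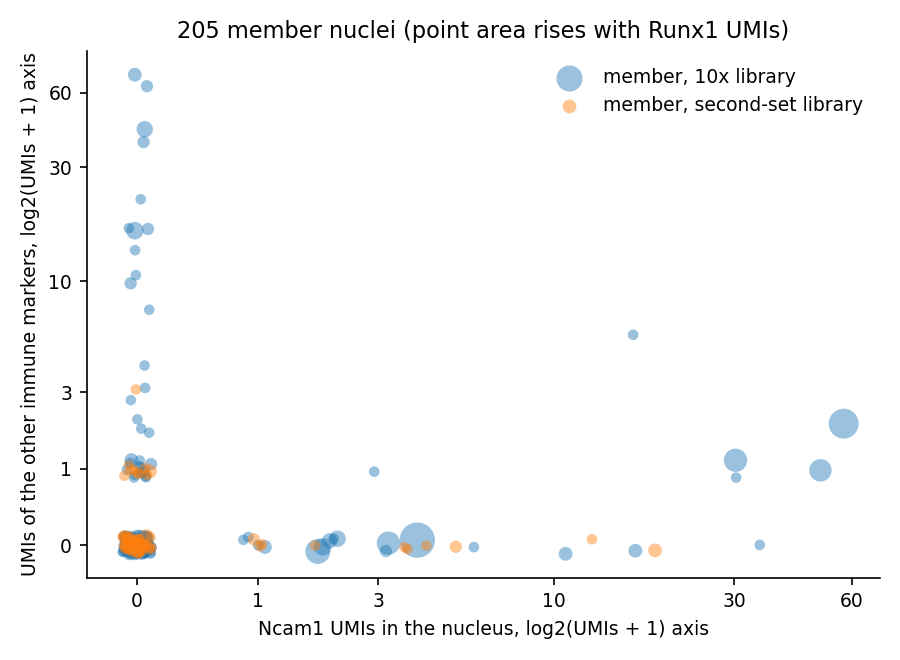
Each point is 1 of the 205 member nuclei, placed by its Ncam1 UMIs (x) and its UMIs of the 7 immune markers that were not in the rule (y), both on a log2(UMIs + 1) axis with slight jitter; point area rises with Runx1 UMIs, blue is 10x and orange the second set. Most nuclei (131) lie at 0 on both axes, the highest immune counts lie at 0 Ncam1 UMIs, and 6 nuclei lie above 0 on both.

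In the pooled nuclei of both library sets, Ncam1 and Gadd45a were found more often at 2 or more Runx1 UMIs than at 0 or 1. Across the 10x libraries, Ncam1 was present in 3.17% of the 441 Runx1-0 nuclei nearest to the members in depth, in 6.84% of 658 nuclei with 1 Runx1 UMI, in 9.68% of 93 with 2 and in 24.1% of 54 with at least 3. Gadd45a, a growth arrest gene raised in denervated muscle, was present in 3.401%, 3.34%, 11.8% and 20.4% of the same classes, and Chrna1 in 0.907%, 0.760%, 3.23% and 14.8%. Among second-set nuclei Ncam1 was present in 5.17% of 174, 10.3% of 320, 16.3% of 43 and in 3 of 15 nuclei, and Gadd45a in 2.87%, 6.88%, 18.6% and 4 of 15. Chrna1 was not highest in the last class there, at 2.30%, 1.56%, 4.65% and 0 of 15. Myog was present in 1.59%, 1.22%, 2.15% and 7.41% of the 10x classes, the last being 4 nuclei, and in 0.575%, 2.81%, 11.6% and 1 of 15 of the second set. Of the 54 10x nuclei with at least 3 Runx1 UMIs, 28 came from Old, where Ncam1 was present in 4.76%, 11.98%, 10.7% and 32.1% of the 4 classes, so that library and Runx1 count are mixed in the pooled shares. These pooled shares are a description, since the nuclei of a library are not replicates.

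**Figure D3:**
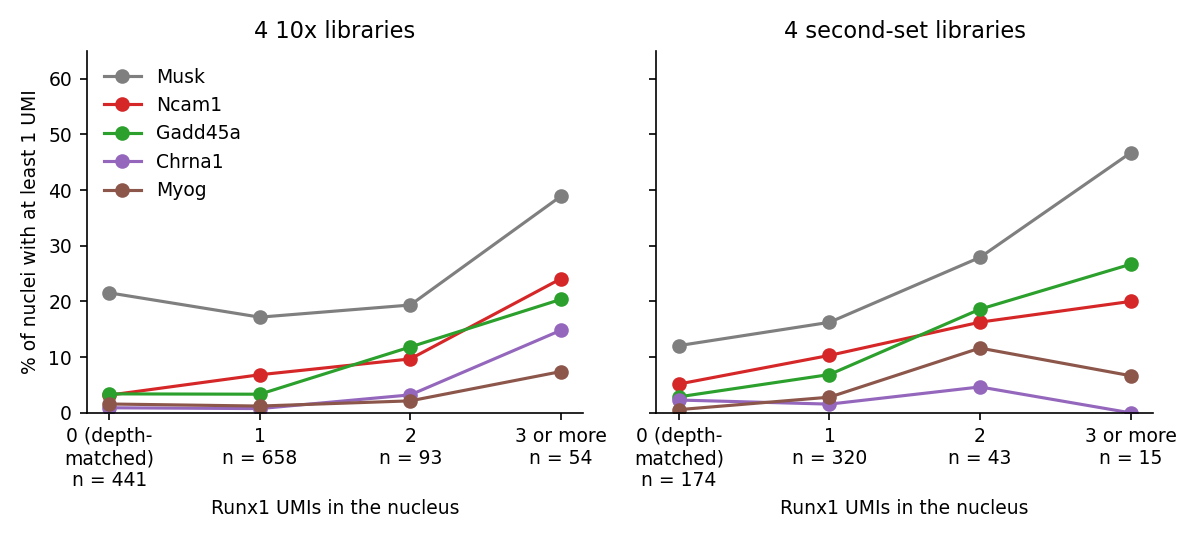
Percent of nuclei with at least 1 UMI of Musk, Ncam1, Gadd45a, Chrna1 or Myog (y) by the number of Runx1 UMIs (x), pooled over the 4 10x libraries (left) and the 4 second-set libraries (right); the class at 0 holds Runx1-0 nuclei matched to members on total UMIs, and n is the number of nuclei. Ncam1 rises at each step in both sets, to 24.1% and to 3 of 15 nuclei, and Gadd45a is highest at 3 or more UMIs in both.

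With every nucleus thinned to 500 UMIs, Ncam1 was present in 12.5% of members against 1.11% of Runx1-0 nuclei in Old, 8.57% against 0.357% in Young, 4.17% against 0.584% in Running and 3.12% against 1.46% in Sedentary of the 10x set. Unthinned, the same 10x shares were 21.4% and 4.05%, 11.4% and 1.27%, 12.5% and 1.69%, and 9.38% and 5.03%. The difference was positive in 4 of 4 libraries (mean 6.21 points, exact sign-flip permutation p = 0.125, the smallest possible) and in 8 of 8 when the second set was added (mean 6.89 points, range 0.632 to 14.6, exact permutation p = 0.00781, again the smallest possible). The thinned values of Running and Sedentary rest on 1 member nucleus each in both sets, as does that of Old in the second set. In that Old library the unthinned share was lower in members, at 5.56% (1 of 18) against 9.34%, so its direction depends on the thinning. Thinned, Myog was present in none of the 10x members and in 0.161% of Runx1-0 nuclei on average (difference −0.161 points, exact permutation p = 0.25), so that a difference in Myog was not detectable at this depth. Adjusted over these 2 genes by Benjamini-Hochberg, the exact p of Ncam1 was 0.25 with 4 libraries and 0.0156 with 8.

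The transcriptome of members was compared with that of Runx1-0 nuclei on counts summed per library, with the library as a block, over the 4 10x libraries, which had at least 20 members each. Of 12337 genes tested outside the rule, 269 (2.18%) passed an adjusted p of 0.05 (edgeR quasi-likelihood test, Benjamini-Hochberg), 155 higher (1.26%) and 114 lower (0.924%) in members. The median gene was shifted by −0.157 on the log2 scale. With DESeq2's size factors in place of TMM, 271 genes passed, 212 higher and 59 lower, at a median of −0.01, so the split of higher and lower genes depends on the scaling. Without the nuclei holding an immune UMI, in both classes, 113 of 11874 (0.952%) passed, 60 higher (0.505%) and 53 lower (0.446%), and 99 of them were among the 269.

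Ncam1 (chr9:49502136-49798925), the neural cell adhesion molecule, was the denervation marker that stood highest. Its level in 10x members was 527 CPM (the gene's UMIs scaled to a common total) in Old, 397 in Young, 148 in Running, with 45.9 in Sedentary, against 30.8, 14.0, 13.3 and 32.4 in Runx1-0 nuclei. In the second set it was 190, 636, 947 and 208 CPM against 110, 52.0, 38.1 and 54.2 in the same order. Members were higher in all 8 libraries, by the least in Sedentary of the 10x set. The log2 difference was 3.46 ± 0.22 (SE, 4 libraries; adjusted p = 8.07e-52, edgeR), 3.27 ± 0.35 without immune-UMI nuclei and 5 ± 0.50 against depth-matched nuclei. The UMIs were concentrated, 178 in 12 of 56 nuclei in Old, 72 in 4 of 35 in Young (52 in a single nucleus), 21 in 3 of 24 in Running and 6 in 3 of 32 in Sedentary, so that these small p-values rest on few nuclei. The SE does not convey how far the 4 libraries differ. In the second set the UMIs were 4 in 1 of 18 nuclei in Old, 25 in 4 of 18 in Young, 21 in 3 of 12 in Running (19 in a single nucleus) and 3 in 2 of 10 in Sedentary. The direction in that set thus rests on very few nuclei.

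Gm28653, the host of Mir206 and Mir133b, stood in 10x members at 1330 CPM in Old, 105 in Young, 42.3 in Running, with 352 in Sedentary, against 78.3, 4.13, 6.43 and 116 in Runx1-0 nuclei. In the second set members stood at 761, 2161, 676 and 694 CPM against 253, 257, 87.6 and 87.1. Members were higher in all 8 libraries, and the level in Runx1-0 nuclei itself varied widely between libraries. The log2 difference was 3.13 ± 0.22 (adjusted p = 3.93e-41, edgeR) and 2.99 ± 0.25 without immune-UMI nuclei.

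Dlg2 (chr7:90476672-92449247), a scaffold protein of the PSD-95 family, stood in 10x members at 1288 CPM in Old, 749 in Young, 155 in Running, with 153 in Sedentary, against 57.4, 55.4, 95.7 and 69.4. Second-set members stood at 951, 1221, 2254 and 833 CPM against 648, 182, 90.3 and 110 in the same order. Members were higher in all 8 libraries, by the least in Running and Sedentary of the 10x set and in Old of the second, and 148 of the 435 Old UMIs lay in a single nucleus. The log2 difference was 2.67 ± 0.20 (adjusted p = 6.18e-39, edgeR), and it did not pass in DESeq2 (2.32 ± 0.82, adjusted p = 0.169). Sh3d19 (chr3:85971109-86130526), an SH3 domain adaptor, stood at 246, 55.1, 35.2 and 138 CPM in the same order, against 10.0 to 14.2. It was higher in all 8 libraries (3.06 ± 0.32, adjusted p = 4.02e-18, edgeR), with 1172 and 1526 CPM against 26.5 and 56.7 in Running and Sedentary of the second set. The paper had already paired Sh3d19 with Runx1, as markers of its Runx1+ Type IIb myonuclei. It lists that type for Sedentary and Running muscle and not for Young and Old. Sema6a (chr18:47235598-47368870), a transmembrane semaphorin, stood at 178, 82.7, 42.3 and 53.6 CPM against 5.78 to 9.49 in 10x libraries (3.39 ± 0.39, adjusted p = 2.28e-15, edgeR), and was higher in 3 of 4 second-set libraries. Dlg2, Sh3d19 and Sema6a passed without immune-UMI nuclei.

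The genes with the largest differences were macrophage-associated. Mctp1 stood in 10x members at 113, 535, 225 and 30.6 CPM (Old, Young, Running, Sedentary) against 3.81 to 11.5 in Runx1-0 nuclei, a log2 difference of 4.41 ± 0.27 (adjusted p = 2.35e-54, edgeR). F13a1, which encodes the A subunit of coagulation factor XIII and is abundant in resident macrophages, stood at 104, 479, 77.5 and 53.6 CPM against 3.65 to 10.2, and Dab2, an endocytic adaptor, at 104, 231, 84.5 and 15.3 against 4.17 to 8.27. In the second set F13a1 was at 0 UMIs in members of all 4 libraries and Dab2 in 3. Without immune-UMI nuclei Mctp1 and Dab2 turned to −1.07 ± 1.16 and −0.999 ± 1.25, neither passing, and F13a1 could not be tested, being one of the markers used. Without the 6% of nuclei with the highest doublet scores, Mctp1 (2.30 ± 0.64) and F13a1 (3.12 ± 0.62) passed and Dab2 (2.25 ± 0.72, adjusted p = 0.0738, edgeR) did not.

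Of the 12 higher genes named by rule, 5 passed without immune-UMI nuclei, namely Ncam1, Sema6a, Gm28653, Sh3d19 and Dlg2. Slc9a9, Ptprj, Frmd4b and Pgm5 stood at 2.36 to 3.36 over all members and at 0.96 to 1.42 without those nuclei, where none passed. All 10 of the 12 that could be tested against depth-matched nuclei passed there. The 12 were picked for large differences in these same members, so that result is not independent of the choice. In the second set, whose members did not enter the choice, 5 of the 12 were higher in all 4 libraries.

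**Figure D4:**
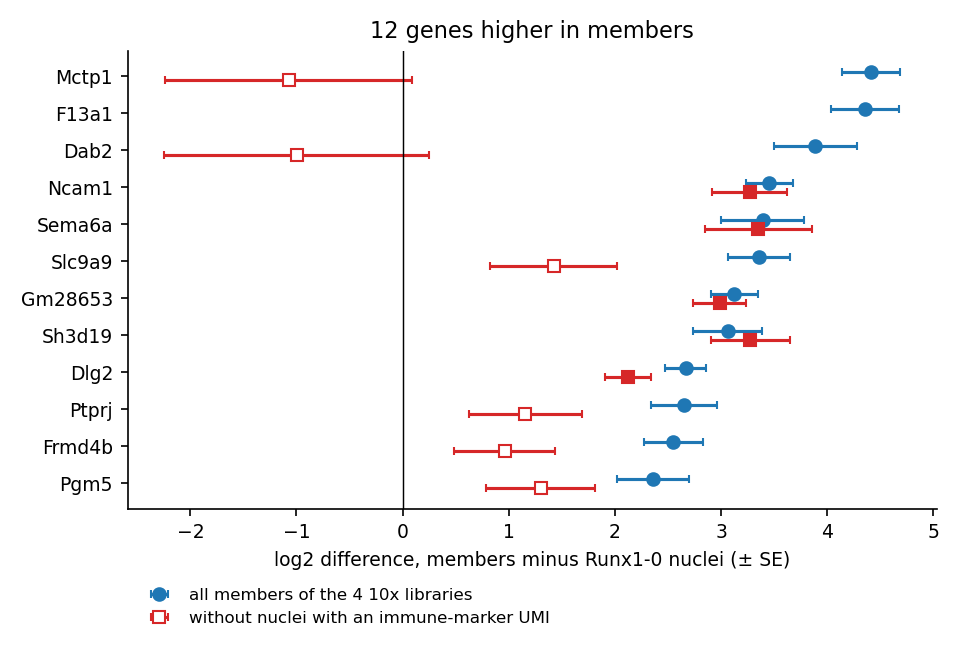
Log2 difference between members and Runx1-0 nuclei (x, ± SE of the fit) for the 12 higher genes named by rule, over all members of the 4 10x libraries (blue circles) and without nuclei holding an immune-marker UMI (red squares); filled symbols passed an adjusted p of 0.05. Ncam1, Sema6a, Gm28653, Sh3d19 and Dlg2 keep their place, whereas Mctp1 and Dab2 move from 4.41 and 3.89 to below 0.

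The immune markers were higher in 10x members as a list. Summed over the 8 markers, they stood in 10x members at 3.32, 10.1, 3.51 and 1.22 UMIs per 10000 (Old, Young, Running, Sedentary), against 0.603, 0.788, 0.512 and 0.262 in Runx1-0 nuclei, with Ptprc at 0 by the rule. In the second set the members stood at 2.31, 0.992, 1.32 and 0 against 2.18, 0.633, 0.375 and 0.381. Of the 7 markers outside the rule, 6 were higher in members (Mrc1, F13a1, Csf1r, Cd163, Dock2 and Ikzf1; median log2 difference 3.13). An immune UMI was also present in 28.6%, 31.4%, 29.2% and 12.5% of 10x members, against 22.6%, 21.9%, 23.6% and 3.12% of depth-matched Runx1-0 nuclei. Of the members, 21.4%, 22.9%, 16.7% and 3.12% lay among the 6% of nuclei with the highest doublet score in the 10x set, against 4.20% to 5.27% of Runx1-0 nuclei. Among second-set members 1 of 58 did, against 5.63% to 7.17% of Runx1-0 nuclei, and an immune UMI was present in 16.7%, 22.2%, 25% and 0% of members against 22.2%, 11.1%, 2.78% and 3.33% of depth-matched nuclei. The part of doublets and of free RNA in these differences was not tested.

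Markers of other cell types had fewer calls. No gene of the fibro-adipogenic, endothelial, muscle stem cell, Schwann, mural, adipocyte or tenocyte lists passed, and 1 of 3 tested myotendinous genes (Ankrd1, 3.73 ± 0.71, adjusted p = 4.08e-05, edgeR) was higher, without passing once immune-UMI nuclei were left out (2.56 ± 1.05, adjusted p = 0.360). The neuromuscular junction list was higher in members in all 8 libraries, at 4.15 against 1.36 UMIs per 10000 in Old, 1.26 against 0.861 in Young, 7.998 against 0.802 in Running and 2.75 against 1.46 in Sedentary of the 10x set. Of its 7 genes Colq and Musk were higher, the median being 1.05. The part of synaptic nuclei in the class was not tested.

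The lists were chosen with earlier results of these data known, and their counts are given beside the 1.26% of genes called higher and 0.924% called lower. Among acetylcholine receptor subunits, 1 of 3 tested was higher, Chrna1 at 71.1, 27.6, 7.05 and 0 CPM in 10x members against 3.82, 2.25, 1.10 and 3.16 (2.97 ± 0.82, adjusted p = 0.0189, edgeR). That value rests on 24 UMIs in 9 Old nuclei, 5 in 1 Young and 1 in 1 Running nucleus, and did not pass without immune-UMI nuclei (2.79 ± 1.05). Among genes that build the postsynaptic membrane, 3 of 14 were higher: Musk, the receptor kinase that clusters the receptors (1.06 ± 0.22), Colq, the collagen tail of acetylcholinesterase (3.62 ± 0.38), and Utrn, the synaptic homologue of dystrophin (1.61 ± 0.23). Musk was higher in members in all 8 libraries. The Colq counts were 65 UMIs in Old, of which 56 lay in a single nucleus, and 48 in Running, with none in Young or Sedentary of the 10x set. Colq did not pass in DESeq2 (1.53 ± 1.74, adjusted p = 0.876) or without immune-UMI nuclei (2.73 ± 0.88). Utrn did not pass in DESeq2 (1.45 ± 0.46, adjusted p = 0.0883) or against depth-matched nuclei (1.32 ± 0.37, adjusted p = 0.0713, edgeR). It was higher in 2 of the 4 second-set libraries.

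Among membrane proteins of denervated fibres, 3 of 6 were higher: Ncam1, the small-conductance potassium channel Kcnn3 (1.48 ± 0.41) and the death receptor family member Eda2r (1.31 ± 0.25). Kcnn3 did not pass without immune-UMI nuclei (1.31 ± 0.51) or in DESeq2 (1.44 ± 0.46, adjusted p = 0.0833). It had no UMI in Old or Sedentary members of the second set. Eda2r was higher in all 8 libraries, at 237, 38.6, 77.5 and 153 CPM against 93.4, 19.7, 16.2 and 57.8 in the 10x set, and passed without immune-UMI nuclei. Among stress and growth arrest genes, 3 of 9 were higher: Gadd45a (2.36 ± 0.56), Ampd3, an AMP deaminase (1.36 ± 0.34), and Ankrd1, a stretch-responsive ankyrin repeat protein. Gadd45a stood at 721 and 833 CPM in members of Running and Sedentary in the second set, against 12.1 and 27.4, but at 0 in Old of that set.

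Several parts of the denervation response had no gene past the test in the 10x set. None of 14 tested histone deacetylase and myogenic factor genes (median −0.10), of 13 atrophy and ubiquitin ligase genes (median −0.0040), of 5 genes of the BMP axis (median −0.19) or of 5 other genes of the Runx family and its partners (median −0.07) passed. Developmental sarcomere genes were too rare in the 10x set, with 3 of 7 tested and none passing (median 0.96). No gene for excitability of innervated fibres passed (9 tested, median −0.33). Over all 8 libraries, 2 of 4 developmental sarcomere genes were higher, Myh8, the perinatal myosin (2.92 ± 0.50), and Myl4, an embryonic myosin light chain (2.65 ± 0.44). There Mdm2, a ubiquitin ligase of p53, was also higher (0.91 ± 0.27, 1 of 12 atrophy genes). The Myh8 counts were few, with 24 UMIs in a single Young nucleus of the 10x set. With at least 20 members per library and 4 libraries, simulated 2-fold changes were found for 27 of 100 genes and 4-fold changes for 54 of 100, so smaller differences of these lists would mostly be missed.

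Some genes of fast fibres and of glycolysis were lower in members. Of 10 fast-fibre genes, 3 were lower: Mybpc2, fast myosin-binding protein C (−0.73 ± 0.17), Atp2a1, the fast calcium pump (−0.68 ± 0.17), and Actn3, the fast alpha-actinin (−0.67 ± 0.17). Each of the 3 was lower in all 8 libraries, Atp2a1 standing at 2076, 3526, 4093 and 1775 CPM in 10x members (Old, Young, Running, Sedentary) against 2966, 5246, 5056 and 2702. Of 12 glycolysis genes, 4 were lower, Hk2, Gpi1, Pfkm and Eno3, at −0.57 to −0.75 (median of the list −0.57 beside −0.157 over all genes). Pfkm and Eno3 did not pass with DESeq2's size factors (−0.42 ± 0.15 and −0.48 ± 0.15), and no gene of the 2 lists passed against depth-matched nuclei of the 10x set, while Mybpc2 did with all 8 libraries (−0.64 ± 0.15, adjusted p = 0.0177, edgeR). Without immune-UMI nuclei Mybpc2, Atp2a1 and Gpi1 passed, and Actn3, Hk2, Pfkm and Eno3 did not (adjusted p = 0.0572, 0.0523, 0.255 and 0.0847, edgeR). No gene of the oxidative, slow-fibre or lactylation lists passed (medians −0.31, −0.29 and −0.36).

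The leading myosin is given as a description, since the rule used the sum of the 4 myosins, and it differed by library set. Myh4, the fast IIb myosin, led in 66.1% of members against 79.2% of Runx1-0 nuclei in Old, 88.6% against 95.3% in Young, 75.0% against 84.7% in Running and 46.9% against 55.9% in Sedentary of the 10x set. It was lower in members in 4 of 4 of these libraries (mean −9.65 points), and higher in 4 of 4 of the second set, at 83.3%, 88.9%, 100% and 100% against 80.4%, 80.0%, 97.0% and 91.7%. Over all 8 the mean was −1.93 points. Restricted to Myh4-dominant nuclei, 267 genes passed the comparison of members with Runx1-0 nuclei, 184 of them among the 269.

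Among the 12 lower genes named by rule, Adamtsl1 (chr4:85514172-86428385), a secreted ADAMTS-like protein, had the clearest values. It stood in 10x members at 35.5, 424, 155 and 30.6 CPM (Old, Young, Running, Sedentary) against 171, 1700, 628 and 143, lower in each library (−2.31 ± 0.21, adjusted p = 1.31e-24, edgeR). In the second set it stood at 285, 356, 135 and 0 against 295, 285, 177 and 110, lower in 3 of 4. Smoc2, a secreted calcium-binding matrix protein, stood at 88.8, 49.6, 70.5 and 23.0 against 230, 135, 106 and 97.2 (−1.46 ± 0.25, adjusted p = 9.97e-07, edgeR), but was higher in Old and Running members of the second set. Adamtsl1 and Smoc2 also passed without immune-UMI nuclei, whereas 9 others (Gm15218, Gm32250, Mars, Efcab6, Naaladl2, Gm50212, Prmt7, 4930422I22Rik and Spns2), at −1.45 to −3.21, did not.

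With the second set added, giving 8 libraries, 216 of 8702 genes (2.48%) passed, 109 higher (1.25%) and 107 lower (1.23%), and 143 of them were among the 269. Ncam1 (3.05 ± 0.24), Sh3d19 (3.28 ± 0.26), Sema6a (3.14 ± 0.32), Gm28653 (2.59 ± 0.23), Dlg2 (2.38 ± 0.23) and Gadd45a (2.86 ± 0.38) passed there. Against depth-matched Runx1-0 nuclei of the 10x set, 106 of 4842 genes (2.19%) passed, 75 higher (1.55%) and 31 lower (0.64%).

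The difference between members and Runx1-0 nuclei was then compared between groups, over all 8 libraries, because the 10x set has 1 library a group. It differed between Old and Young for 2 of 8702 genes (0.023%), Dclk1 and Ntm, and between Running and Sedentary for none (0.0%; 126 genes at an unadjusted p under 0.05, and 0 called by DESeq2). Ncam1 was among the 3 genes of smallest p for Running against Sedentary (difference of log2 differences 3.09 ± 0.93, unadjusted p = 0.000837, adjusted p = 1, edgeR). For Old against Young it was −1.34 ± 0.83 (adjusted p = 1). Within members alone, none of 2521 genes differed between Old and Young or between Running and Sedentary (0.0%, edgeR; 30 and 56 genes at an unadjusted p under 0.05, and 0 called by DESeq2 in both).

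Over all eligible nuclei, whatever their Runx1 count, Runx1 stood at 21.6 CPM in Old and 9.95 in Young of the 10x set and at 57.3 and 20.9 in the second. Old was above Young in both sets. The log2 difference was 0.90 ± 0.42 (fit over all 8 libraries; unadjusted p = 0.0657, adjusted p = 0.730, edgeR). Runx1 stood at 8.85 in Running and 19.98 in Sedentary of the 10x set and at 15.3 and 18.7 in the second, with a log2 difference of −0.82 ± 0.42 (unadjusted p = 0.0907, adjusted p = 0.9998, edgeR). Since every eligible nucleus counts here, fewer nuclei with the transcript and less transcript per nucleus cannot be told apart.

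Ncam1 was ordered alike. It stood at 42.7 and 110.3 CPM in Old against 17.1 and 57.5 in Young (0.73 ± 0.36, adjusted p = 0.730, edgeR), and at 13.9 and 44.1 in Running against 34.1 and 56.0 in Sedentary (−0.86 ± 0.37, adjusted p = 0.9998, edgeR). Musk stood at 99.95 and 138 in Old against 46.3 and 85.4 in Young, and at 26.9 and 101 in Running against 109.9 and 165 in Sedentary (−1.30 ± 0.47, adjusted p = 0.9998, edgeR). None of 18356 genes passed in either comparison of eligible nuclei (0.0%; 577 and 97 genes at an unadjusted p under 0.05, and 2 and 0 called by DESeq2). The 7 membrane genes of denervated fibres had a median log2 difference of 0.75 for Old against Young, beside 0.07 over all genes, and of −0.80 for Running against Sedentary, beside −0.04. Fibre-type lists differed as much in the same nuclei, with medians of 0.89 (slow fibre), −0.92 (fast fibre) and −0.88 (glycolysis) for Old against Young, and of −2.74, 0.90 and 0.65 for Running against Sedentary. Other lists of the denervation response were mixed for Old against Young. The medians were 0.58 for acetylcholine receptor subunits, −0.28 for atrophy and ubiquitin ligase genes and −0.32 for histone deacetylase and myogenic factor genes. For Running against Sedentary they were −0.40, −0.15 and −0.14. No gene of these lists passed, and the part of fibre type in the levels of Runx1, Ncam1 and Musk was not tested.

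**Figure D5:**
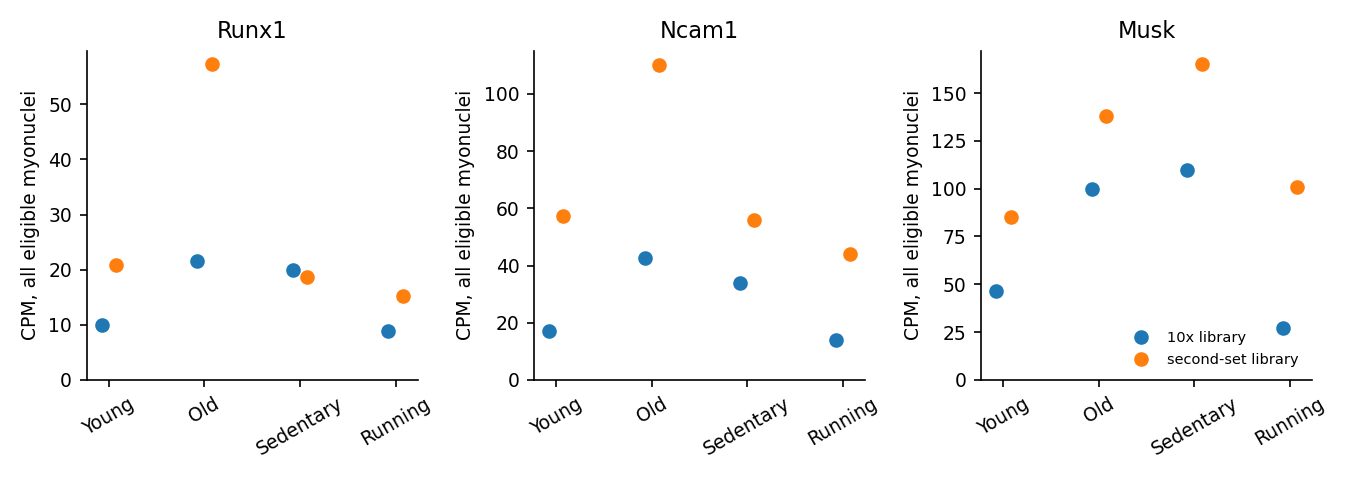
Level of Runx1, Ncam1 and Musk in CPM (y), summed over all eligible myonuclei of a library, by group; each point is 1 library, blue for 10x and orange for the second set. For all 3 genes Old lies above Young and Sedentary above Running within each set, while none of these differences passed the adjusted test.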

How the data were processed

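Single-nucleus RNA was counted in 8 gastrocnemius libraries, 2 in each of 4 groups. The deposited values are raw UMI counts per gene and nucleus. The paper gives Cell Ranger 6.1.2 for 10x Genomics and PISA for DNBelab C, taken to be the second set, both against mm10. Counting of intronic reads is not given in the sources used here. Of 65280 deposited nuclei, 64803 were kept, namely those whose detected genes lay between 200 and 6000 and whose mitochondrial UMIs stayed under 6%, as in the study's methods, over 21207 symbols common to all libraries. Mitochondrial and ribosomal genes were left out of the fits. The highest 6% of doublet scores (scanpy 1.11.5, Scrublet) were left out only as an alternative.

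Counts were summed per library and class and tested with edgeR 4.0.16 (R 4.3.3; TMM, filterByExpr, quasi-likelihood test, adjusted p under 0.05). The 4 10x libraries had at least 20 members and entered the comparison of members with Runx1-0 nuclei, with library as a block. The designed comparisons of members between groups could not be fitted with 1 library a group and used all 8 libraries instead. Depth-matched nuclei were the 3 Runx1-0 nuclei nearest to each member in total UMIs. Shares have 95% Wilson intervals, and differences between libraries exact permutation tests (scipy 1.17.1). DESeq2 1.42.0 was an alternative. The fits were tested on simulated data. Named genes were up to 12 higher and 12 lower calls with the largest change, log2 CPM averaging 4 or more, and 1 direction in all libraries of the fit, list genes, and, between groups, calls or the 3 smallest p-values. Members, rule and gene lists were chosen with earlier results of these data known. Coordinates are from GENCODE vM21 (GRCm38). Some genes are not reported here.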

Additional observations from a re-analysis of the deposited data

Results flagged for a closer look

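For 2 genes the difference between members and Runx1-0 nuclei itself differed between Old and Young (edgeR interaction test over 8 libraries). Dclk1, a microtubule-associated kinase, had a difference of −5.63 ± 1.14 (Old minus Young, log2, adjusted p = 0.0061). It stood in members at 8.88 CPM in Old and 187 in Young of the 10x set and at 0 and 458 in the second set, against 7.81, 4.53, 79.7 and 18.1 in Runx1-0 nuclei. Of its 34 UMIs in Young of the 10x set, 29 lay in a single nucleus. Ntm, a neural adhesion protein, had a difference of −6.49 ± 1.43 (adjusted p = 0.0260, edgeR). It stood in members at 2.96 and 93.7 CPM in the 10x set and at 0 and 102 in the second set, against 6.54, 2.77, 252 and 44.7 in Runx1-0 nuclei, and all 17 UMIs in Young of the 10x set lay in 1 nucleus. DESeq2 gave an adjusted p of 1 for Dclk1 and Ntm. Leaving out 1 library at a time, the adjusted p of Dclk1 was 0.218 without Young of the 10x set and 1 without Old of the second set, and it passed without each of the other 6. Ntm did not pass without Young of the 10x set (1), Old of the second set (1), Running of the 10x set (0.0694) or Running of the second set (0.0706), nor without the highest doublet scores (−3.83, adjusted p = 1, edgeR).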

How the results depend on the processing

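The comparison of members with Runx1-0 nuclei called 269 genes, against 172 with DESeq2, 106 against depth-matched nuclei, 61 against depth-matched nuclei in 8 libraries, 26 with no library block, 113 without immune-UMI nuclei, 4 without nuclei holding a UMI of any of 7 other cell types (which left 1 to 3 members a library), and 110 to 279 when 1 library was left out, the lowest without Old of the 10x set. The settings on depth-matched nuclei in 8 libraries, immune UMIs and other cell types were chosen after seeing the data, as was the use of all 8 libraries. Without immune-UMI nuclei Mctp1 and Dab2 reversed to −1.07 and −0.999. The Old against Young difference of the class effect called 2 genes, against 9 with DESeq2's size factors, 6 with no filter, 0 with DESeq2, 0 against depth-matched nuclei, 4 in Myh4-dominant nuclei, 4 without the highest doublet scores, 1 with at least 3 Runx1 UMIs, 11 without immune-UMI nuclei, and 0 to 52 with 1 library left out (0 without Young of the 10x set or Old of the second, 1 without either Running library, 8 and 52 without Sedentary and Young of the second set). Genes in eligible nuclei between Old and Young numbered 0, against 2 with DESeq2, 14 with only the 4 libraries compared and 0 to 3 with 1 library left out (3 and 1 without Sedentary of the 10x and second set). Between Running and Sedentary they numbered 0, and 0 to 23 with 1 library left out, 23 without Sedentary of the second set. Genes in members between Old and Young numbered 0 to 5 with 1 library left out (5 without Old or Young of the second set, 1 without Young of the 10x set or Sedentary of the second). Between Running and Sedentary they numbered 4 with only the 4 libraries compared and 0 to 5 with 1 left out, 5 without Sedentary of the second set. Ano4, of smallest p for Running against Sedentary at 5.20, reversed to −7.45 without immune-UMI nuclei and to −7.98 without Running of the 10x set. The share of members, Old minus Young, ranged from 0.2397 to 0.775 points with 1 library left out, the lowest without Old of the 10x set. That of Running minus Sedentary, ranged from −0.384 to 0.0696 points with 1 library left out, and reversed without Sedentary of the 10x set. The thinned Ncam1 share difference was 6.89 points in 8 libraries, past the threshold. That of Myog reversed from −0.161 points to 1.98 without thinning, 0.774 at 1000 UMIs and 2.04 in 8 libraries. The cause of these changes was not tested. No paired analysis was possible because the replicate numbers follow accession order and pair no animals. They coincide with the library set, a term of the fits between groups in eligible nuclei and in members, each of which also called 0 genes without it. Members number 10 to 56 a library, which limits every value.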
